A study of Nicotiana tabacum with 6 samples.

Results

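The transcripts described here are those whose signal was lowered at least 8-fold in tobacco cells treated with aluminium. They were chosen by the measured difference itself. A probe on the array was taken where it stood well above background on all 3 control arrays and its mean log2 level on the aluminium arrays was lower by at least 3. Probes whose identifier is 1 letter and 5 digits, or AB, AF, AY or DQ and 6 digits, were left out, which removed 23 probes. This left 189 probes under 163 identifiers, of 43759 tobacco probes on the array and of 25935 that could have been chosen under the same limits on detection and identifier. All 189 had a value on each of the 6 arrays.

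The cells were suspension-cultured Nicotiana tabacum, the wild-type line SL. The aluminium group (100 µM AlCl3, 3 samples) and the control group (0 µM, 3 samples) were each kept for 18 h in the same medium of CaCl2 (3 mM), sucrose (3%) and MES (20 mM, pH 5.0), after log-phase cells had been washed free of their growth medium. Both groups were therefore out of growth medium for the whole treatment. Nothing in the labels says that the replicates came from separate cultures, and p-values then measure only a spread between samples that may be technical. Each sample was hybridised to its own single-colour array, and the arrays with the same replicate number shared a slide, with the control array in the first position and the aluminium array in the other. Treatment therefore cannot be told apart from position on the slide.

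In acid media the soluble aluminium ion is a poison to plant cells. The ion binds to pectin in the cell wall and to the plasma membrane, and growth is the process it is best known for stopping. In a tissue or culture, a lower transcript level can come from less synthesis or from faster breakdown. It can also come from fewer cells of a type or from less RNA per cell, and in a bulk sample these cannot be told apart.

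The files pair each probe with a sequence identifier or with its own name, and give no gene name, description or probe sequence. RefSeq lists 79372 tobacco genes, and 0 of the 163 identifiers matched one, so no member is given a gene name or a role here. For the same reason the cells could not be checked against marker genes. By the form of their identifiers, 50 of the 189 probes were listed under TA numbers, 29 began with EB, 21 with FG, 20 with BP, 16 with EH, 14 with DV, 13 with CV and 10 with DW. The rest had other forms, 2 of them listed by probe name only. Members made up 0.729% of all probes that could have been chosen. The share was 1.34% among CV identifiers, 1.09% among EH, 0.933% among TA, 0.521% among EB and 0.442% among BP. These shares are descriptions with no test.

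Levels are given as log2 of the processed signal relative to the 75th percentile of the same array, so that 0 is the level that the brightest 25% of probes exceed. Brightness depends on the probe as well as on the transcript, so a brighter probe does not mean a more abundant RNA. The share of probes well above background ran between 62.1% and 74.7% over the arrays, and no tobacco spot was saturated. The 75th-percentile signal lay between 1180 and 3224 units, with the lowest values on the arrays of replicate 3, whose slide was scanned on another day.

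The 189 log2 differences, aluminium minus control, centred on a median of -3.45, with quartiles of -4.28 and -3.13 and a largest fall of -7.13. As a fold the median was 11.0. By the measured signals 58 probes were at least 16-fold lower, 26 at least 32-fold and 3 at least 64-fold. Of these 3, 1 was well above background on no aluminium array. Of the 58, 38 stayed well above background on all 3 aluminium arrays, 9 on 1 or 2 and 11 on none. The 26 also include probes that were not well above background with aluminium. Falls of at least 8-fold were rare on the array, at 0.735% of the 28861 probes tested. The limit was crossed by a narrow margin in many: 37 probes lay between -3.1 and -3, and 18 lay between -3 and -2.9. Just inside it were A_95_P116577 (DV159567), at -1.49, -1.51 and -1.50 on the aluminium arrays against 1.60, 1.35 and 1.55 on the control arrays, and A_95_P119347 (DV162491), at -2.06, -1.54 and -1.98 on the aluminium arrays against 0.93, 1.11 and 1.37 on the control arrays. Just outside it were A_95_P023501 (TA20133_4097) at -2.99 and A_95_P216217 (TA20657_4097) at -2.98. The standard errors of these 4 differences were 0.10, 0.19, 0.18 and 0.14, all wider than the gap across the limit.

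In limma, with Benjamini-Hochberg adjustment over all tested probes, 189 of the 189 probes were lower at an adjusted p under 0.05, where 20.2% of all tested probes were. The highest adjusted p among them was 0.00848. Blocking on replicate number gave 189 again, against 30.2% of all tested probes. In all 189 the 3 aluminium arrays lay below the 3 control arrays, which held for 25.5% of all tested probes, and all 189 were lower on each of the 3 slides, against 37.1%. The members were chosen on this contrast, so these counts restate the choice.

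Members were found at every brightness. In control cells 70 probes stood above the 75th percentile (called high here), 44 lay between -2 and 0 (middle) and 75 lay below -2 (low). They were 0.676%, 0.672% and 0.830% of the probes of each class that could have been chosen. The high members had a median level of -2.61 with aluminium and 1.71 in control cells, and the middle members -4.30 and -0.83. The low members had -7.27 with aluminium and -3.48 in control cells. Expressed as a rank within the array, the median member stood at the 44.6th percentile with aluminium and at the 67.9th in control cells. Of the 189, 7 were still above the 75th percentile with aluminium, against 70 in control cells.

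Detection with aluminium was not part of the choice and divided the members unequally. On all 3 aluminium arrays 127 probes (67.2%) stayed well above background, 32 did so on 1 or 2 arrays and 30 on none. Among all probes that could have been chosen, 98.5% stayed well above background on all 3. A fall of this size lowers a dim probe towards the background by itself, so the 2 shares are not a test. All 70 high members remained well above background with aluminium, as did 40 of the 44 middle and 17 of the 75 low members. Of the 30 probes well above background on no aluminium array, 29 were low and 1 was middle.

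**Figure D1:**
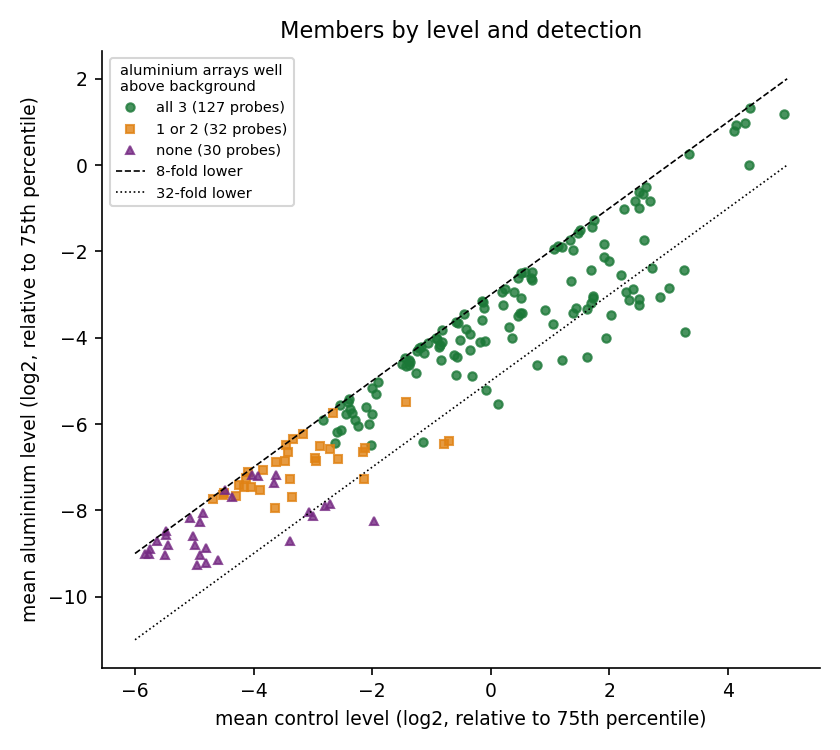
Mean level on the 3 aluminium arrays (vertical axis) against the mean level on the 3 control arrays (horizontal axis), both log2 relative to the array's 75th percentile, for the 189 members. Colour and shape give the number of aluminium arrays on which a probe was well above background, and the lines mark falls of 8-fold and 32-fold. Probes not well above background with aluminium lie at the dim end, and most falls beyond 32-fold are of probes above 0 in control cells.

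For the 30 probes well above background on no aluminium array the fold is given as a bound only. Such a probe was not necessarily undetected, and more members passed the positive-and-significant flag given below. On each array the bound used the brighter of the probe itself and the dimmest signal there that still counted as well above background. So counted, the bound reached 8-fold for 10 of the 30, 4-fold for 21 and 2-fold for all 30. The bound ranged from 2.36-fold for A_95_P187637 to 34.1-fold for A_95_P143617, with a median of 4.65, while the measured signals of the same probes gave a median of 11.7-fold. The others among the 30 met the 8-fold limit through signals that were not well above background. The bound is not a strict minimum, since some probes brighter than the dimmest such signal were still not well above background. That signal was 17.0 units on aluminium array 2, where A_95_P107497, at 23.2 units, did not count. A probe's own limit can therefore be higher.

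The largest measured fall was that of a bright probe. A_95_P188152 (TA14506_4097) was at -3.40, -4.07 and -4.10 on the aluminium arrays of replicates 1, 2 and 3 and at 3.28, 3.10 and 3.43 on the control arrays. In scanner units this was 265, 183 and 68.9 with aluminium against 28603.5, 27670.5 and 15115.5 in control cells. The probe ranked at the 48.3rd percentile of its array with aluminium and at the 95.8th in control cells, and its differences were -6.68, -7.18 and -7.53 on slides 1, 2 and 3. The next largest, of A_95_P143617, ended not well above background and is given with the middle members. A_95_P090213 (BP530860), also bright, stood at -4.42, -4.31 and -4.62 with aluminium and at 1.74, 1.57 and 1.59 in control cells, which is a difference of -6.08 ± 0.12 (SE) and a 67.7-fold fall. Its values lay close together within each group, and its differences were -6.16, -5.87 and -6.20 on slides 1, 2 and 3.

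The brightest members were not those that fell furthest. They were picked for their level after the values had been seen. A_95_P197867 (TA16657_4097) had the highest control level, 4.95 ± 0.15, and was at 1.18 ± 0.22 with aluminium (SD, n = 3 each). It fell 13.6-fold and still ranked at the 83.9th percentile of its array with aluminium, against the 99.2nd in control cells. A_95_P008181 (DW000053) had the highest level left with aluminium, 1.32 ± 0.19 against 4.37 ± 0.10 in control cells (SD, n = 3 each). A brighter probe of this identifier that is no member, A_95_P144812, fell less. It was at 2.87 with aluminium and 4.97 in control cells, a difference of -2.10. A_95_P189947 (TA14897_4097), at 0.004 ± 0.20 with aluminium and 4.35 ± 0.12 in control cells (SD, n = 3 each), fell 20.4-fold. The mean aluminium levels of these 3 members were therefore at or above the 75th percentile. On single arrays A_95_P189947 was at -0.15, -0.07 and 0.23 with aluminium, on both sides of it.

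Among the middle members, 2 that stayed well above background on all aluminium arrays fell most. A_95_P041366 (BP130073) was at -5.96, -7.22 and -6.07 with aluminium and at -1.40, -1.11 and -0.95 in control cells. Its aluminium value on slide 2 lay more than 1 log2 unit below the others, and its differences were -4.57, -6.11 and -5.12 on slides 1, 2 and 3. A_95_P112757 (CV020817) was at -5.16, -4.86 and -5.60 with aluminium and at -0.20, 0.43 and -0.46 in control cells, a fall of 35.1-fold that was alike on the 3 slides, at -4.97, -5.29 and -5.14.

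Larger falls in this class were measured against partial detection. A_95_P210692 (EH615398) had -6.64, -6.11 and -6.43 with aluminium and -0.69, -0.65 and -0.75 in control cells. A_95_P105132 (CV017312) had -7.07, -5.82 and -6.52 with aluminium and -1.01, -0.28 and -1.05 in control cells. Both were well above background on 2 of the 3 aluminium arrays and had measured falls of 51.8-fold and 51.5-fold. A_95_P143617 (EB446857) was at -8.27, -7.56 and -8.92 with aluminium, none of them well above background, and at -2.10, -1.74 and -2.06 in control cells. Its control signals of 684, 965 and 337 units stood against 9.06, 16.3 and 2.43 units with aluminium, and the bound on its fall was 34.1-fold.

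The low members named here gave smaller or less certain falls than the middle members named above. As a class they did not fall less, with a median of -3.41 against -3.30 for the middle members. A_95_P009881 (EB451441) and A_95_P199742 (TA17058_4097) stayed well above background on all aluminium arrays. The first was at -6.50 ± 0.23 with aluminium and -2.03 ± 0.43 in control cells, and the other at -5.99 ± 0.34 with aluminium and -2.05 ± 0.36 in control cells (SD, n = 3 each), which are falls of 22.2-fold and 15.4-fold. A_95_P246017 (EB451441) was well above background on 1 aluminium array, with -7.27 ± 0.55 against -2.14 ± 0.35 in control cells (SD, n = 3 each). A_95_P204477 (TA18074_4097) was well above background on 2 aluminium arrays, with -6.65 ± 0.38 against -2.15 ± 0.33 in control cells (SD, n = 3 each). Its differences of -4.53, -4.55 and -4.44 on the 3 slides were close together. A_95_P005216 (TA21137_4097) and A_95_P288278 (FG637486) were well above background on no aluminium array. Their measured falls were 39.6-fold and 35.6-fold, and their bounds were 12.7-fold and 20.5-fold.

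**Figure D2:**
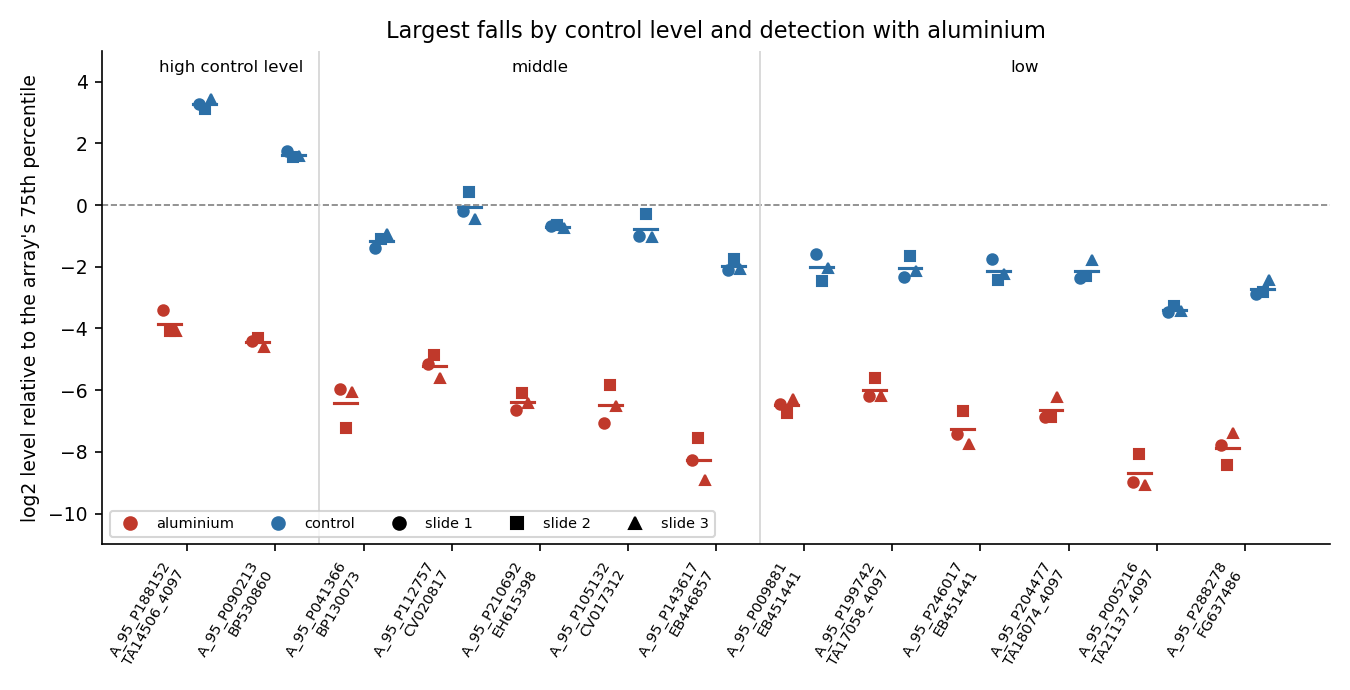
Log2 level relative to the array's 75th percentile (vertical axis) for the members that fell most in each class of control level and detection. Aluminium arrays are in red to the left and control arrays in blue to the right of each tick, symbols give the slide and bars the mean of 3 arrays. The smallest difference between group means is -3.94, and the aluminium values of the low members reach down to about -9.06.

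The fall was seen on each slide with a similar size. The median log2 difference of the 189 probes was -3.54 on slide 1, -3.501 on slide 2 and -3.60 on slide 3. A fall of at least 8-fold was reached by 167, 153 and 163 probes on these slides, and by 0.762%, 0.655% and 0.766% of all tested probes. On all 3 slides together it was reached by 124 probes, on 2 by 46 and on 1 by 19. All 189 were at least 2-fold lower on every slide and 188 at least 4-fold lower. On single slides 8.33%, 8.07% and 8.39% of all tested probes were at least 2-fold lower. The mean over these slides chose the members, so these counts are partly set by the choice. The range of a probe's differences over the slides had a median of 0.33 among high, 0.49 among middle and 0.82 among low members, so the dim members were the least even.

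Over all members the median SD of the 3 arrays was 0.29 with aluminium and 0.19 in control cells. Dim probes varied more on this array: among the probes that could have been chosen, those of low control level had median SDs of 0.25 and 0.23 and those of high control level 0.13 in each group. The high members had 0.21 with aluminium, at a median level of -2.61, and 0.16 in control cells, at 1.71. Members were dimmer with aluminium, so their wider spread there cannot be told apart from that of their level. The widest differences over the slides were in 2 low probes that were well above background on no aluminium array. A_95_P106277 (CV017834) was at -7.79, -7.57 and -7.25 with aluminium and at -4.24, -3.48 and -5.75 in control cells. Its control value of replicate 3 lay far below the others, and the differences were -3.55, -4.09 and -1.50. A_95_P022931 (EB681014) was at -7.58, -9.74 and -9.10 with aluminium and at -5.53, -5.32 and -5.51 in control cells, with the aluminium value of replicate 1 above the rest. Without the arrays of replicate 1 the limma adjusted p of A_95_P106277 was 0.103, and without those of replicate 3 that of A_95_P022931 was 0.0578, so these calls ended.

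Because the mean of all slides chose the members, their size on those slides is partly set by the choice. The same rule was therefore applied to 2 slides at a time and the slide not used was read. Slides 2 and 3 chose 178 probes, which had a median of -3.56 on slide 1. Slides 1 and 3 chose 196, with a median of -3.35 on slide 2, and slides 1 and 2 chose 178, with a median of -3.55 on slide 3. Of the chosen probes, 79.2%, 71.9% and 79.2% were at least 8-fold lower on the slide that had not been used. Among all tested probes 0.762%, 0.655% and 0.766% were so low on slides 1, 2 and 3. None of the chosen probes was higher with aluminium on the slide read (0 of 178, 196 and 178), and the smallest falls there were -0.69, -0.26 and -0.23. The median on the slide read was smaller in size than on the choosing slides each time, by little: -3.56 beside -3.57 for slide 1, -3.35 beside -3.51 for slide 2 and -3.55 beside -3.61 for slide 3. The 3 readings share arrays among their choices and are not independent of each other. The rule asked for detection in control cells only, which favours a fall of dim probes here too. If the replicates came from the same culture, the slide read is no separate check on the treatment.

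**Figure D3:**
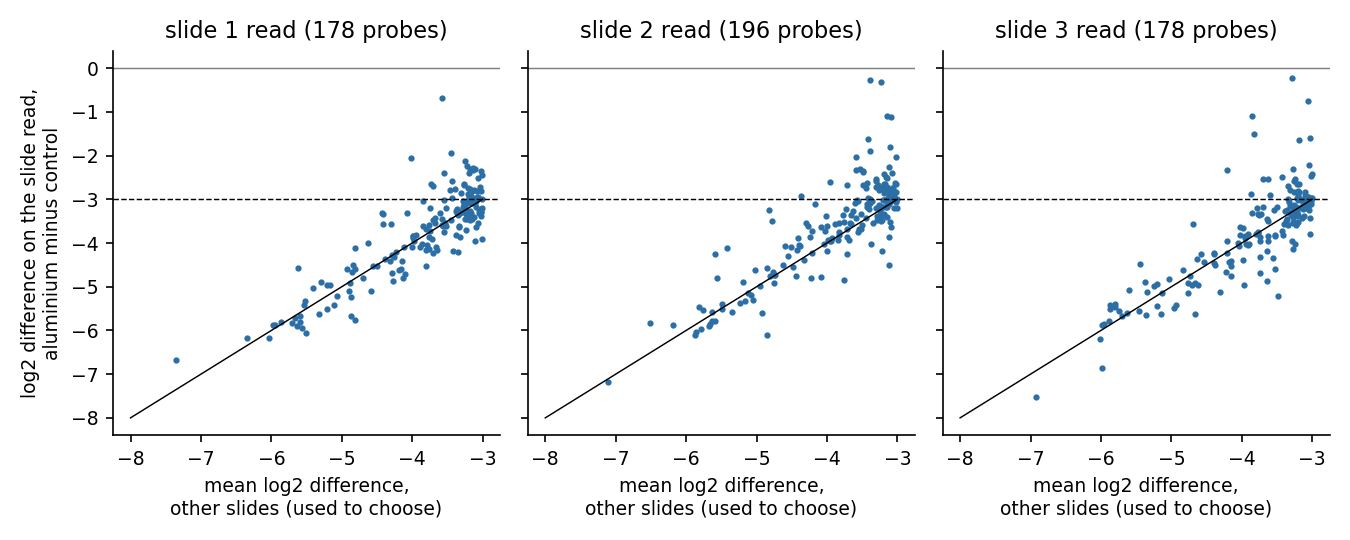
Log2 difference, aluminium minus control, on the slide that was not used for the choice (vertical axis) against the mean difference on the slides that chose the probes (horizontal axis), 1 point per probe. The solid line marks equal values, the dashed line the limit of -3 and the grey line no difference. All points lie below 0 and most lie near the line of equal values, with 71.9% to 79.2% at or below -3.

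Some identifiers had several probes, read on the same arrays from the same RNA samples. Without probe sequences, whether such probes overlap is not known. Of the 163 identifiers, 128 had a single probe on the array, and 23 had more than 1 member probe, 49 member probes in all. Within these 23 the measured differences lay apart by a median of 0.23. Every member lies at -3 or below, and probes that fell less are not counted here. This closeness is therefore partly set by the choice, most of all for identifiers near the limit. The 3 probes of EH618856 were A_95_P004391, A_95_P113432 and A_95_P112022, with differences of -5.92, -5.75 and -5.62. Their levels were -3.06, -3.25 and -3.11 with aluminium and 2.86, 2.496 and 2.51 in control cells, so 3 bright probes gave about the same fall. The 3 probes of FG636365 gave -3.14, -3.14 and -3.11, although their control levels ran over 0.24 to 2.51. The 3 of EB451441, all near or below -2 in control cells, gave -5.14, -4.47 and -3.88. A dimmer probe of the same identifier that is no member, A_95_P157327, was at -2.15 and well above background on no aluminium array. TA12291_4097, picked after its values had been seen, had 2 bright probes that stayed well above background on all arrays and disagreed, at -4.96 for A_95_P013046 and -3.502 for A_95_P012771.

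A further 23 probes belonged to 19 of the member identifiers without being members. Of these, 18 were tested, and 17 of the 18 were at least 2-fold lower with aluminium, where 7.94% of all tested probes were. Their median difference was -2.59, and 15 were at least 4-fold lower. They cannot reach past -3 except by being members, so a size under that limit is set by the choice. The direction was not part of the rule. Some of the 18, such as A_95_P008156 (TA17058_4097), were well above background on no aluminium array. Such probes were tested only through the control group, where they were higher, which favours a fall in this count. The tested probe with the smallest fall was A_95_P254509 (EB438355), at -5.65 with aluminium and -4.72 in control cells, a difference of -0.93, beside -3.102 for the member probe of the same identifier. For EB682278 the member A_95_P014166 had a difference of -3.01 and the other probes had -2.93, -2.67, -2.21 and -1.93. The member was dim, at -3.33 in control cells, and well above background on 2 aluminium arrays. So were the probes at -2.93 and -2.67, with control levels of -3.61 and -3.14. The probes at -2.21 and -1.93 were brighter, at -0.02 and 0.62 in control cells, and well above background on all 6 arrays. For TA11627_4097 the members A_95_P002696 and A_95_P003156 had -3.95 and -3.92, while A_95_P105297 had -1.63, with -0.91 with aluminium and 0.72 in control cells. All 3 were well above background on all 6 arrays. Tobacco is an allotetraploid, so probes of an identifier can also read near-identical transcripts of the other parental genome. Whether this has a part in such disagreements was not tested. The 5 others were not tested, since neither group had them well above background on all its arrays. Their differences were -1.88, -1.53, -1.42, -0.65 and -0.01.

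The size of the falls depended on how the background was treated, and this differed with brightness. With normexp correction of the raw spot medians and an offset of 50, the median difference of the 189 was -2.62, and 68 of them were at least 8-fold lower. Of the high members 56 of 70 kept an 8-fold fall, of the middle 12 of 44 and of the low 0 of 75. The medians were -3.51, -2.69 and -1.51 in these classes, against -3.93, -3.30 and -3.41 with the processed signal. At least 4-fold falls were kept by 70 of 70, 44 of 44 and 18 of 75. Limma called 174 of the 189 lower after this correction, and the 15 that lost their call were all low members. An offset added to every signal compresses differences between dim signals by construction. Without the offset, an alternative added after the data had been seen, 106 probes kept an 8-fold fall, 64 of them high, 25 middle and 17 low. A_95_P188152 had -6.61 and A_95_P090213 -5.30 after normexp correction with the offset, while A_95_P005216 had -1.96 and A_95_P143617 had -2.89.

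**Figure D4:**
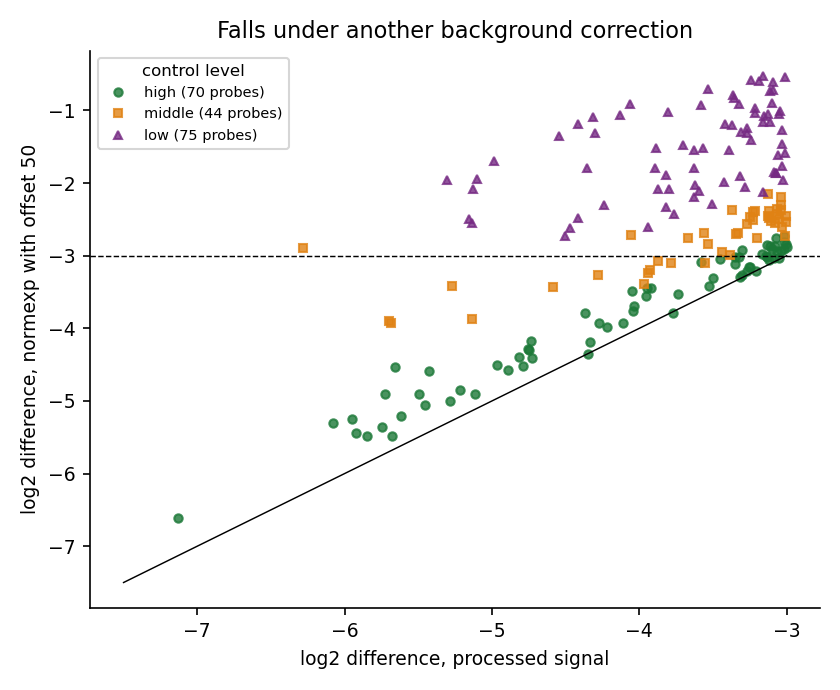
Log2 difference, aluminium minus control, after normexp correction with an offset of 50 (vertical axis) against that of the processed signal (horizontal axis) for the 189 members, by class of control level. The solid line marks equal values and the dashed line the limit of -3. High members lie near the line of equal values, and all 75 low members lie above the dashed line.

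With spike-in controls as the basis of scaling, the size of the falls differed between slides. The median difference of the members was then -3.61, and -0.08 over all tested probes, against -3.45 and 0.07 by the 75th percentile. Relative to the median of all tested probes the members stood at -3.52 under both, which is fixed by construction, since a scaling shifts all probes of an array alike. By slide the spike-in medians of the members were -3.51, -3.34 and -4.24 for slides 1, 2 and 3, where all tested probes had 0.08, 0.18 and -0.55. The 189 members all remained at least 8-fold lower under spike-in scaling, and 218 probes met the limit.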

How the data were processed

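Total RNA of 3 aluminium and 3 control samples (200 ng each) was labelled with Cy3, per the labels' protocols. The authors extracted the scans with Agilent Feature Extraction (version 11.5.1.1, per the file headers). The processed signal deposited for each array is an intensity, corrected within the array and not scaled between arrays. The deposited value table of the series holds log2 values with no scale or centring stated. Set against the array files, it matched the log2 processed signal scaled to the 75th percentile and then centred per probe by the median of all samples; the median deviation reached 0.00122 on the array that matched least. The medians of its columns were 0.05, -0.03 and 0.00072 for aluminium and -0.02, 0.0042 and -0.01 for control replicates 1 to 3. Its direction followed from this match.

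Of 45220 spots, 1417 control spots and up to 16 flagged outlier spots per array were left out. Log2 processed signal was averaged per probe and the 75th percentile over the 43759 probes subtracted. The 28861 probes well above background on all 3 arrays of a group entered an unblocked fit of aluminium minus control (limma 3.58.1, R 4.3.3) and were called at a Benjamini-Hochberg adjusted p under 0.05. The fit was tested on simulated data, with independent noise on each array and every probe taken as detected. Slide pairing and loss of detection were therefore not part of that test. Same-numbered arrays shared a slide, per the file headers; what remained after subtracting group means correlated across probes at 0.615, 0.798 and 0.711, so the numbers pair the arrays. A fit with the number as a block was run as an alternative. The number of arrays limits the precision.

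The members, classes, alternatives and naming rule were chosen with earlier results of these data known. Named probes are the 2 largest falls in each class of control level and detection, 1 per identifier; the 2 on each side of the 8-fold limit; the 2 with the widest spread over slides; and the identifiers with the most member probes. Normexp correction used the raw spot medians, also deposited as intensity, and spot means were not used here. The planned grouping of genes by description was not made, since no descriptions were given.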

Additional observations from a re-analysis of the deposited data

How the results depend on the processing

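The number of members stayed within 1.5 times of 189 under quantile normalization, median scaling, spike-in scaling, the deposited value table, kept outlier spots and detection on all 6 arrays (127 to 218). It was 68 with normexp correction at an offset of 50 and 106 without the offset, which was tried after the data had been seen. Their median difference of -3.45 became -2.62, -3.04 and -3.61 under normexp, normexp without offset and spike-in scaling. Leaving out 1 array or both arrays of a replicate gave 176 to 200 members, medians of -3.54 to -3.43 over the same 189 probes, and 183 to 189 called lower. Leaving out 1 array, the one such alternative run for these counts, gave 117 to 134 newly chosen members well above background on all aluminium arrays left, and 17 to 18 lowered further probes of member identifiers. On the slide left out of the choice the medians were -3.97, -3.77 and -3.31 (slides 1, 2 and 3) with normexp, and median scaling gave -3.72 on slide 3. With the replicate block 189 of the 189 were called, as without it, and the block changed no call of a named probe. The positive-and-significant flag gave 166 members detected on all aluminium arrays in place of 127. Of 484 alternative values of the 26 named probes, 480 kept direction and call, and 4 kept only their direction. Those 4 were A_95_P106277 (adjusted p = 0.0643) and A_95_P022931 (0.0898) under limma after normexp, and the same probes without replicates 1 and 3. None of the 26 reversed, which the choice of members made unlikely. The dim end limits the members: 132, 156 and 137 of the 189 were well above background on aluminium arrays 1, 2 and 3.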

Other observations

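Some members had neighbouring TA numbers, which was noticed after their values had been seen. Of 43 TA numbers among the members, 9 had another member within 5 numbers. The same count was not made for other TA numbers. Of 194 tested TA probes near member numbers that were not members, 7.22% were at least 2-fold lower. Among those further away 8.49% were. At least 4-fold lower were 2.06% and 1.43%. Members near another member were left out of the first share, and no member can be further away. The comparison is therefore partly set by the choice. The members below were picked for being close in number. TA12212_4097 (A_95_P178317) and TA12213_4097 (A_95_P000536) had log2 differences of -5.43 and -5.85. Their levels were -4.64 and -2.85 with aluminium and 0.79 and 3.00 in control cells, so both were bright in control cells and differed by a like amount. TA11624_4097, TA11627_4097 and TA11629_4097 gave -3.63, -3.95 and -3.96 in the leading probe of each. TA14653_4097 and TA14654_4097 gave -3.74 and -4.22, and TA12624_4097 and TA12625_4097 gave -3.06 and -3.09. No source used here says what closeness of these numbers stands for.

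The members were spread over the face of the array. Divided into 4 equal fields, the array held 48, 50, 48 and 43 of the 189, which is 25.4%, 26.5%, 25.4% and 22.8%, where all tobacco probes had 25.3%, 24.7%, 25.3% and 24.7%.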
